A study of Mus musculus with 6 samples.

Results

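*Car9* and *Hilpda* are genes whose transcription rises in many cell types when oxygen is scarce, and their RNA was compared between the mouse lung squamous cell carcinoma (LUSC) lines UN-SCC679 and UN-SCC680. Both lines came from A/J mice whose lung tumors were induced with the carcinogen N-nitroso-tris-chloroethylurea (NTCU). Each line stems from the tumor of a different mouse and was passed through immunodeficient and then A/J mice before the working line was established. Cells grew in culture medium with serum, and an oxygen level is not given in the sources used here. Polyadenylated RNA was sequenced in 3 libraries per line, of 3568293 to 4381885 counts each, and nothing says that the libraries came from separate cultures, so errors measure only the spread between these libraries. The 2 genes were taken from a table of 55359 rows and were selected on their measured counts in these same 6 libraries, so the difference between the lines is given for them as a description, with no test. Since each line is a single isolate in bulk RNA, fewer expressing cells and less RNA per cell cannot be told apart.

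Cells sense oxygen through prolyl hydroxylases, which mark the alpha subunits of the hypoxia-inducible factors (HIF) for destruction while oxygen is present. When oxygen falls, HIF is stable, pairs with Arnt and binds a short element with the core ACGTG or GCGTG near its target genes. *Car9* encodes a membrane-bound carbonic anhydrase whose active site faces outward, where it hydrates carbon dioxide and helps to set the pH around the cell. *Hilpda* encodes a small protein of lipid droplets that inhibits adipose triglyceride lipase, the enzyme that begins the breakdown of stored triglyceride. Staining for the human counterpart of *Car9* is a widely used sign of hypoxic areas in squamous tumors.

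Most rows of the table were not read here as the gene they name, because their positions are not those of GRCm38 (mm10), the build named for the reads. The build of the positions is not named, and if the reads were counted in that build, the rows left out would hold the genes they name. Rows with at least 1 end no more than 10 bases from that of the RefSeq gene in GRCm38.p6, 527 in all, are called unchanged here. The end of *Car9* (ENSMUSG00000028463.15, chromosome 4, 43506966 to 43513729, + strand) fell on the GRCm38 position, with a start 60 bases before the RefSeq start. *Hilpda* (ENSMUSG00000043421.9, chromosome 6, 29272487 to 29275445, + strand) lay within 1 base of GRCm38 at the start and 4 at the end. The row of *Car9* covers 2304 exonic bases in 11 separate blocks, and that of *Hilpda* 1103 bases in 3. No other row overlaps *Hilpda*. *Car9* shares 214 exonic bases, 9.29% of its length, with *Gm12454*, a row on the opposite strand that held 11 to 26 counts in the UN-SCC679 libraries and 34 to 44 in those of UN-SCC680. The library kit keeps the strand, but counting by strand is not stated, so reads within these shared bases cannot be assigned to one of the pair. None of the 14 markers of squamous, alveolar and epithelial identity that were listed lies at an unchanged position, so the labelled cell type was not checked here.

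The sequences before the RefSeq start of *Car9* and the first of 2 RefSeq starts of *Hilpda* are shown because HIF elements are often found near the start of such genes. The bases before the second start of *Hilpda* lie partly in its transcript and are shown further on only around their cores. The windows are from RefSeq in GRCm38.p6, 5′ to 3′ along the gene, and capitals mark a core, which on this strand reads CACGT where ACGTG lies on the other.
Car9, chr4:43506776-43507025, + strand: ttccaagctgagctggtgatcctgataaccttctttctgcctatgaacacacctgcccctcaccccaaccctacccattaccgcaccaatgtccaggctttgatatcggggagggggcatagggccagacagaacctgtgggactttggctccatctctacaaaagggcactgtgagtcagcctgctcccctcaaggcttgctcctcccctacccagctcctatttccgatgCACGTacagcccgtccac
Hilpda, chr6:29272238-29272487, + strand: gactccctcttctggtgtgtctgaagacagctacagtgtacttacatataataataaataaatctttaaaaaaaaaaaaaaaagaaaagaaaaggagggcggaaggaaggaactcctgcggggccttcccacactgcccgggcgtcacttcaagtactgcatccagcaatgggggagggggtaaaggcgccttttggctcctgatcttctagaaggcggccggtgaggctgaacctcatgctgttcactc

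*Car9* had 1 core in its window, an ACGTG on the reverse strand whose first base as printed lies at -18 from the RefSeq start. *Hilpda* had none in the 250 bases before its first start, and a GCGTG 28 bases into the transcript. RefSeq gives *Hilpda* a second start at 29272626, and before this one lie an ACGTG at -43 and GCGTG at -111 and -8. The GCGTG at -111 is the same site as that at 28 from the first start. The sites around the starts of *Hilpda*, with 10 bases to each side, are shown to set beside the site of *Car9*.
Hilpda, ACGTG, chr6:29272573-29272597, + strand: tggccagcggACGTGccccagggcg
Hilpda, GCGTG, chr6:29272505-29272529, + strand: accgcgagccGCGTGctttccgtga
Hilpda, GCGTG, chr6:29272608-29272632, + strand: ggttcggtacGCGTGcgcagtctcc

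Of the 32851 RefSeq windows of 300 bases (250 before and 50 after a start), 19.6% held ACGTG on either strand, 32.4% held GCGTG and 43.8% held at least 1 of them. ACGTG also lies inside CACGTG, the site of other factors, which 7.15% of windows held, but none of the sites printed here is part of CACGTG. A core is therefore common, and a match is a description of these letters only.

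*Car9* RNA was far more abundant in UN-SCC680 than in UN-SCC679. The raw counts of *Car9* were 34, 40 and 25 in the UN-SCC679 libraries and 366, 333 and 368 in those of UN-SCC680. After scaling by TMM, a method that sets library sizes by the bulk of the rows, the normalized read counts, in CPM (counts scaled to a common library size), were 9.15, 9.10 and 6.99 in UN-SCC679 and 87.1, 77.1 and 86.9 CPM in UN-SCC680. All UN-SCC680 libraries stood far above all UN-SCC679 libraries. The means were 8.41 ± 1.23 CPM (SD, n = 3) and 83.7 ± 5.74 CPM (SD, n = 3), a fitted log2 fold change of 3.30 (standard error 0.12), or 9.85-fold. At the low counts of UN-SCC679 the coefficient of variation was 14.6%, no more than the 17.4% that counting error alone gives.

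*Hilpda* RNA was present in both lines at a level that differed little. Its raw counts were 378, 439 and 345 in UN-SCC679 and 525, 518 and 503 in UN-SCC680. The corresponding normalized values were 102, 99.8 and 96.5 CPM in UN-SCC679 and 125, 120 and 119 CPM in UN-SCC680. The lines did not overlap, although the gap between the nearest libraries was small beside that of *Car9*. The means were 99.3 ± 2.65 CPM and 121 ± 3.27 CPM (SD, n = 3 each), a fitted log2 fold change of 0.29 (standard error 0.06), or 1.22-fold. The lines did not overlap for 2 of 2 genes, but they did not overlap for 83.2% of the 268 tested rows at unchanged positions either.

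**Figure D1:**
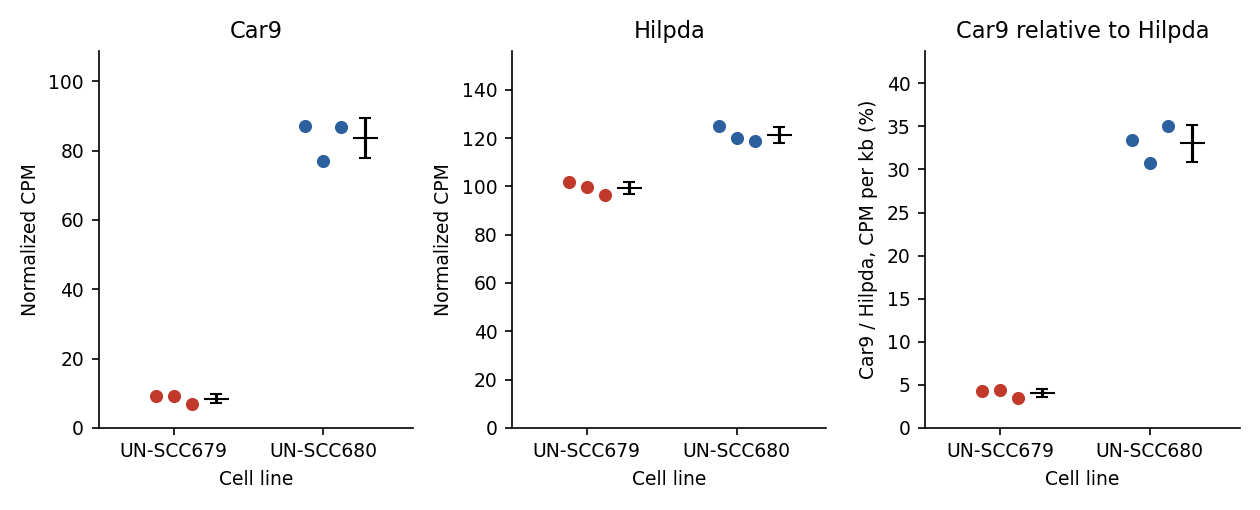
Normalized CPM of *Car9* and *Hilpda* (left and middle) and the level of *Car9* as a percentage of that of *Hilpda*, both in CPM per kilobase of exon (right), by cell line; points are libraries, and the bar at their side gives the mean ± SD (n = 3). *Car9* goes from 8.41 to 83.7 CPM and *Hilpda* from 99.3 to 121 CPM, so that the percentage goes from 4.05% to 33.1%.

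The second gene thus did not follow the first in size. In each library the level of *Car9* was set against that of *Hilpda*, which removes the scaling of the library. In CPM per kilobase of exon, a scale on which genes of different length can be compared, *Car9* reached 4.31%, 4.36% and 3.47% of the level of *Hilpda* in UN-SCC679 and 33.4%, 30.8% and 35.0% in UN-SCC680. *Hilpda* was the more abundant RNA in all 6 libraries. The mean share was 4.05% ± 0.500 for UN-SCC679 against 33.1% ± 2.14 for UN-SCC680 (SD, n = 3 each), and the fitted log2 fold change of *Car9* exceeded that of *Hilpda* by 3.01.

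The small difference of *Hilpda* depended on the rows used for scaling, while that of *Car9* did not in its order of size. Over the 268 tested rows at unchanged positions the median log2 fold change was 0.18, against -0.0028 over all 8987 tested rows. Of the 268 rows, 172 lie on chromosome 4 (median 0.33), 65 on 6 (-0.15), 19 on 18 (0.087) and 12 on 9 (-0.95). Values set against these rows thus rest mostly on chromosome 4. *Hilpda* lay 0.11 above the median of these readable genes and *Car9* 3.12 above it. With scaling factors taken from the unchanged rows alone, the log2 fold change of *Hilpda* became 0.11 and that of *Car9* 3.12. By log2 fold change *Car9* ranked 3 of these 268 rows, counted from the largest increase, and *Hilpda* ranked 113. Counted in either direction, the differences were larger than that of *Car9* for 20 rows and larger than that of *Hilpda* for 176. By level per kilobase, *Hilpda* ranked 76 of 268 in UN-SCC679 and 68 in UN-SCC680, while *Car9* ranked 229 and 154.

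**Figure D2:**
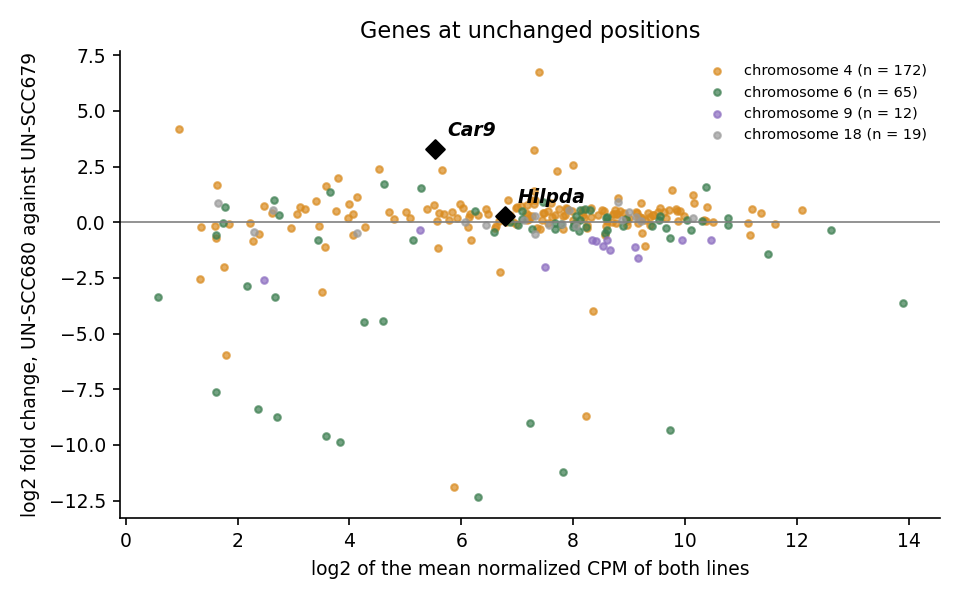
Log2 fold change of UN-SCC680 against UN-SCC679 (vertical) against the log2 of the mean normalized CPM of both lines (horizontal) for the 268 tested rows at unchanged positions, colored by chromosome; diamonds are *Car9* and *Hilpda*. *Car9* stands at 3.30 above nearly all rows, and *Hilpda* at 0.29 within their main band.

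The rest of the hypoxia response was read only in part. Of 230 genes listed as targets of HIF or of hypoxia, 216 rows lay at moved positions and 12 at unchanged ones, *Car9* and *Hilpda* included. Of the other 10, *Lep* held 0 counts over all 6 libraries, and 8 were tested. All 8 differed between the lines at an adjusted p-value under 5e-05 in the quasi-likelihood test of edgeR (Benjamini-Hochberg over all tested rows), the threshold of the study, with 3 higher in UN-SCC680 and 5 lower. Such calls were frequent, at 30.4% of all tested rows and 61.6% of those at unchanged positions, where 39.6% were higher and 22.0% lower in UN-SCC680. The list was chosen with earlier results of these data known, so the calls of its genes are a description and not separate support. The median log2 fold change of the 8 genes was -0.53. The listed genes thus did not share a direction, and the split largely followed the chromosome. *Grhpr*, *Pnrc1* and *Zfp292*, which rose, and *Rragd*, which fell, lie on chromosome 4. *Pdk4*, *Tes*, *Cav1* and *Met*, which all fell, lie on chromosome 6. Of all tested rows at unchanged positions, 87 were called higher and 19 lower on chromosome 4, against 14 and 28 on chromosome 6. The part of the chromosome in this split was not tested. Asking for an absolute log2 fold change over 1 left 4 of the 8, and asking that both ends of the row be unchanged left 2.

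The 3 that rose in UN-SCC680 have dissimilar roles. *Grhpr*, which encodes an enzyme that reduces glyoxylate and hydroxypyruvate, measured 86.6, 94.4 and 79.1 CPM in UN-SCC679 and 224, 238 and 217 CPM in UN-SCC680, or 1.38 higher on the log2 scale (SE 0.06, adjusted p = 1.10e-23 by edgeR). *Pnrc1*, a coregulator of nuclear receptors, had means of 101 ± 3.94 CPM and 201 ± 11.5 CPM (SD, n = 3 each; adjusted p = 3.64e-19 by edgeR's model). The row of *Pnrc1* ends 41376 bases beyond the GRCm38 gene, so it may count reads of other transcripts. *Zfp292*, a zinc-finger protein, had 425 ± 13.8 and 763 ± 6.97 CPM (SD, n = 3 each) and a log2 fold change of 0.85.

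The 5 that fell included genes of fuel choice, growth signaling and the cell surface. *Pdk4*, a kinase that turns off pyruvate dehydrogenase and so spares glucose carbon, had 464, 449 and 449 CPM in UN-SCC679 and 0, 0.231 and 0.236 CPM in UN-SCC680. With 2 counts in all of UN-SCC680, its ratio was 2948-fold in favor of UN-SCC679 (95% exact interval of counting error 816 to 24353). *Rragd*, a Rag GTPase that conveys amino acid supply to mTORC1, ranged from 19.0 to 22.1 CPM in UN-SCC679 against 1.85 to 3.09 CPM in UN-SCC680, and its log2 fold change was -3.15 (SE 0.22, adjusted p = 1.73e-16 by edgeR). *Rragd* thus lost about as many log2 units as *Car9* gained, from a level per kilobase in UN-SCC679 near that of *Car9* there (3.94 and 3.65 CPM per kilobase).

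*Met*, the receptor of hepatocyte growth factor, had means of 4190 ± 46.9 CPM and 1561 ± 22.3 CPM (SD, n = 3 each), and its log2 fold change was -1.42. *Tes*, a protein of focal adhesions, and *Cav1*, the coat protein of caveolae, changed less, with log2 fold changes of -0.70 and -0.36. *Cav1* was the most abundant of these genes, at 6989 ± 143 CPM against 5453 ± 159 CPM (SD, n = 3 each).

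**Figure D3:**
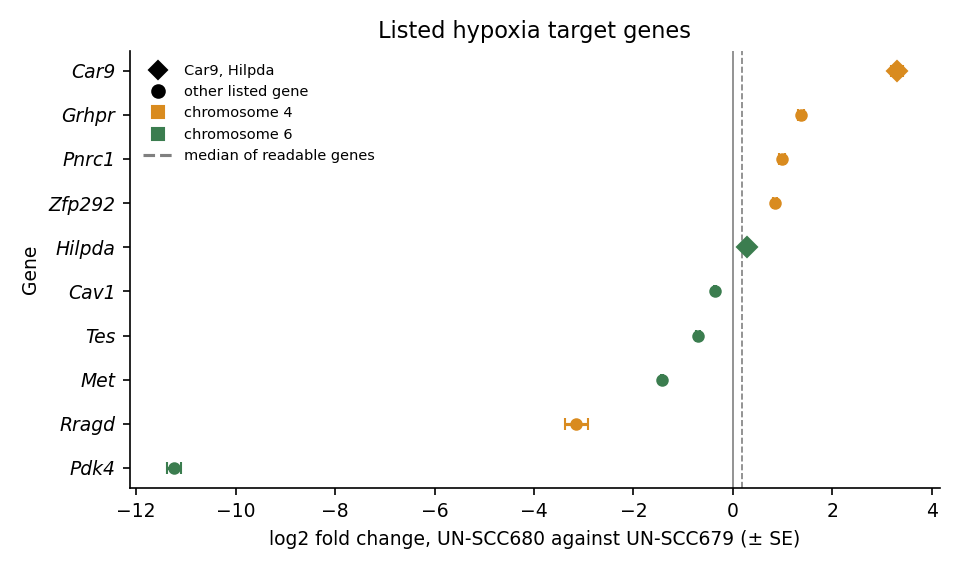
Log2 fold change of UN-SCC680 against UN-SCC679 with its standard error for *Car9*, *Hilpda* (diamonds) and the 8 other listed hypoxia targets tested (circles), colored by chromosome; the dashed line is the median of 0.18 over the 268 readable genes. *Car9* stands highest at 3.30, *Hilpda* lies beside the median, and the value of *Pdk4* is a fit to 2 counts in UN-SCC680 and depends on the method.

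The genes that sense oxygen were not read here. Of 33 listed genes of oxygen sensing and HIF, among them *Hif1a*, *Epas1*, *Arnt*, *Vhl* and the prolyl hydroxylases *Egln1* to *Egln3*, 0 lay at unchanged positions. The promoters of the 10 other listed targets were searched in the same way. Windows of 9 were found, and 6 of these held at least 1 core, 4 of them ACGTG. Of all 27025 RefSeq genes with a window, 12628 held a core and 5886 held ACGTG. With only 9 genes, a difference from these shares was not tested. Both ACGTG matches of *Met* and some of those of *Zfp292* lie inside CACGTG. Among the genes that fell, *Met*, *Pdk4*, *Tes* and *Cav1* held a core and *Rragd* did not, and among those that rose, *Grhpr* and *Zfp292* did and *Pnrc1* did not.

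Genes that share the function of *Car9* or *Hilpda* were also sparse in the readable rows. Of 18 listed carbonic anhydrases and related proteins, 3 lay at unchanged positions. Besides *Car9* these were *Car8*, a relative without catalytic activity, with 0 counts in all 6 libraries, and *Ptprz1*, a receptor phosphatase with a carbonic anhydrase-like domain, with 1 count. *Car9* was thus the only one of the 3 with more than 1 count in all. Of 51 listed genes of acid and bicarbonate transport, 3 lay at unchanged positions. *Atp6v1f*, a subunit of the proton pump of lysosomes, had means of 205 ± 7.06 CPM and 203 ± 4.18 CPM (SD, n = 3 each), which overlapped (log2 fold change -0.017, SE 0.050, adjusted p = 0.789 by edgeR). *Cftr*, a chloride and bicarbonate channel, was at least 41.0-fold lower in UN-SCC680, with 95 to 135 counts per UN-SCC679 library and 0 in UN-SCC680. *Atp6v0d2* held 1 count in all.

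Of 62 listed genes of lipid droplets and lipolysis, *Hilpda* and *Decr1* were the readable ones. *Decr1*, a mitochondrial enzyme of the oxidation of unsaturated fatty acids, held 412 to 518 counts in the libraries of UN-SCC679 and 0 in those of UN-SCC680, which is at least 168-fold lower (against 3 counts per library, by library size, counting error alone considered). *Pnpla2*, which encodes the lipase that Hilpda protein inhibits, and the droplet coat genes *Plin1* to *Plin5* lay at moved positions.

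The tested genes at unchanged positions around *Car9* did not share its difference. The overlapping *Gm12454*, with 11 to 26 counts per library in UN-SCC679 and 34 to 44 in UN-SCC680, is not among these. Of the 5 genes at unchanged positions on each side, 7 of 10 were tested, and their log2 fold changes ran from -0.28 to 0.56 with a median of 0.012. *Tln1*, which encodes the adhesion protein talin, was the one that passed the threshold (log2 fold change 0.56, standard error 0.03, adjusted p = 1.65e-21 by edgeR). *Tln1* lies on the - strand, and its lowest position, the end of the gene, is 24.6 kb from the start of *Car9*. *Creb3*, a membrane-bound transcription factor, had a log2 fold change of 0.25 and an adjusted p of 5.21e-05 by edgeR, just beyond the threshold. On the other side, the nearest pair, *Arhgef39* and *Ccdc107*, had values of 0.16 and 0.0057. The row of *Arhgef39* has its end at -9052 bases from that of the GRCm38 gene. Over the 172 tested rows of chromosome 4 the median was 0.33, and *Car9* lay 2.97 above it.

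No tested neighbor of *Hilpda* had a fitted value on its side of 0, although 1 was within its error of 0. Of its 10 neighbors 6 were tested, and all 6 fitted log2 fold changes were below 0, with 3 past the threshold. These were *Impdh1*, an enzyme of guanine nucleotide synthesis (-0.34), *Ccdc136* (-0.44) and *Flnc*, which encodes filamin C (-9.34). *Flnc* starts 161 kb from *Hilpda* and held 9 to 12 counts in the UN-SCC680 libraries. *Fam71f1*, the nearest tested gene on the far side at 46.7 kb, had -0.80 (adjusted p = 0.000209 by edgeR), which missed the threshold. *Opn1sw* had -0.055 with a standard error of 0.33 (adjusted p = 0.900 by edgeR), so its direction is not settled. Each of these last 2 rows matches GRCm38 at one end only. The start of *Fam71f1* lies 5670 bases after that of the GRCm38 gene, and the end of *Opn1sw* lies 7954 bases beyond it. The median over the 65 tested rows of chromosome 6 was -0.15, and *Hilpda* lay 0.44 above it. Of the tested rows of chromosome 4, 87 were called higher and 19 lower in UN-SCC680, and of those of chromosome 6, 14 and 28. The part of this difference in the values of *Car9* and *Hilpda* was not tested.

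**Figure D4:**
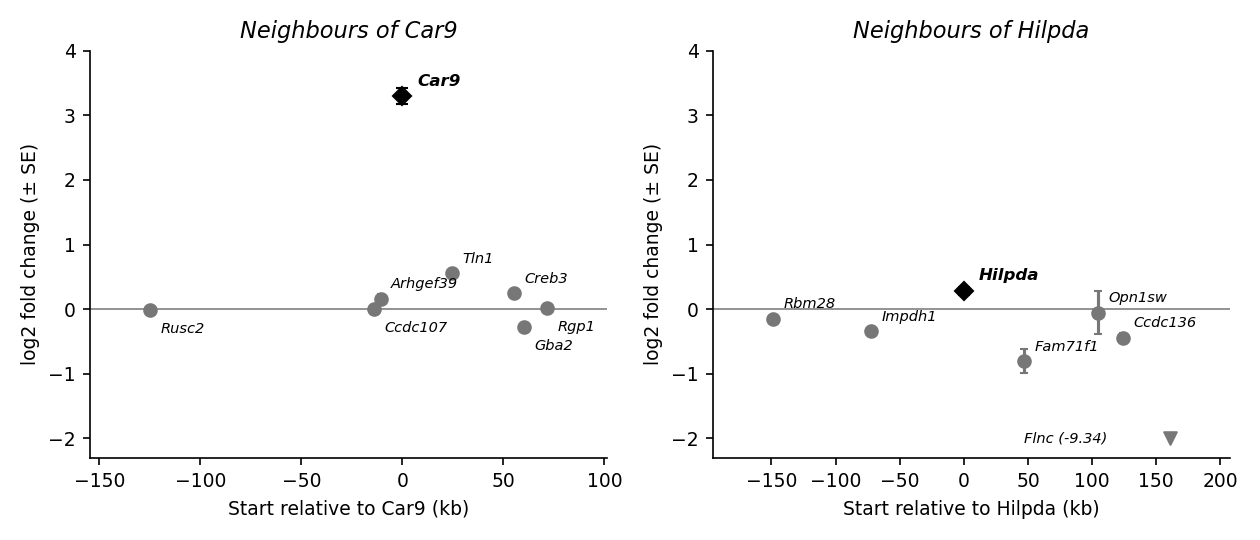
Log2 fold change of UN-SCC680 against UN-SCC679 with its standard error for *Car9* (left) and *Hilpda* (right), shown as diamonds, and for their tested neighbors at unchanged positions, by the distance in kilobases between the lowest positions of the rows on either strand. The neighbors of *Car9* lie between -0.28 and 0.56 while *Car9* is at 3.30, and those of *Hilpda* lie below 0 while *Hilpda* is at 0.29; the triangle marks *Flnc*, beyond the axis at -9.34.

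The pattern of *Car9* over the 6 libraries was most like that of *Klf4*, a transcription factor of epithelial differentiation. Likeness was the Euclidean distance between log2 CPM values centered on their mean over the libraries, among the 267 other tested rows at unchanged positions, and it was 0.312 log2 units for *Klf4*. The next were *Trp53inp1* (0.879), *Reck* (1.15), *Abca1* (1.16) and *Ptpn3* (1.20), all on chromosome 4, with log2 fold changes of 2.32 to 2.55. The row of *Ptpn3* has its end at -37203 bases from that of the GRCm38 gene, so it stops short of it. Chromosome 4 holds 172 of the 268 tested rows at unchanged positions, and 87 of the 106 called higher. *Hilpda* was far down this order, at place 107 with a distance of 3.64. With 2 lines of 3 libraries, this distance follows mainly the difference in log2 fold change where that difference is large. The order therefore restates the values on which the 2 genes were selected and is not separate support.

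The rows most like *Hilpda* lay much closer to it than any row lay to *Car9*. Few rows had a log2 fold change near that of *Car9*, which ranked 3 of 268. The value of *Klf4*, 3.26, was nevertheless close to the 3.30 of *Car9*, so the distance of *Klf4* does not follow from the fold changes alone. Between replicates, log2 CPM had an SD of 0.16 for *Car9* and 0.038 for *Hilpda*. The rows most like *Hilpda* were *Creb3* (0.0579), *Tomm5* (0.0831), *Sem1* (0.102), *Zfp462* (0.102) and *Nol6* (0.115), with log2 fold changes of 0.24 to 0.33. *Car9* was at place 248 of 267 in the order of likeness to *Hilpda*.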

How the data were processed

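For each Ensembl gene the authors deposited raw counts (whole numbers, not normalized) and exon positions. The submitters' processing notes name featureCounts and mm10, whereas the paper's methods name Trimmomatic, Kallisto and DESeq2. The build of the row positions is not named. Symbols were matched to 31021 of 55359 identifiers, and positions were compared with RefSeq genes of GRCm38.p6. Of the rows, 527 were unchanged, 25011 moved (both ends by over 1000 bases), 357 unclear and 29464 unplaced. *Hilpda* was matched through its older symbol 2310016C08Rik. Columns of values left unused numbered 0, and 0 rows lacked an identifier.

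UN-SCC680 was compared with UN-SCC679 in all 6 libraries with edgeR (glmQLFTest after TMM scaling and filterByExpr, without covariates), which kept 8987 rows, 268 of them unchanged. P-values were adjusted over all tested rows by Benjamini-Hochberg. Normalized CPM used TMM-scaled totals of the filtered rows, and standard errors were derived from the F statistic. The log2 CPM had a prior count of 2. Replicates of a line differed beyond sampling noise (chi-square over degrees of freedom 1.12 to 1.57), and each counted as 1 sample. That spread does not show that they came from separate cultures. The common coefficient of variation beyond counting error in the fit was 3.12%, and the p-values rest on this spread between libraries. Intervals and floors (3 counts) cover counting error only. The fit was tested on simulated data. *Car9*, *Hilpda* and the lists, written from general knowledge, were chosen with earlier results of these data known. Named were all listed genes at unchanged positions, except 1 that is not reported here, 5 neighbors on each side and the 5 rows most alike. Alternatives were DESeq2, limma-voom, a block by replicate number, other scalings, thresholds and filters, and each library omitted in turn. Software comprised Python 3.11.15 (pandas 2.3.3, NumPy 2.4.6, matplotlib 3.10.9, SciPy 1.17.1) and R 4.3.3 (DESeq2 1.42.0, limma 3.58.1, edgeR 4.0.16).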

Additional observations from a re-analysis of the deposited data

How the results depend on the processing

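With scaling on unchanged positions alone, the log2 fold change of *Car9* became 3.12 and that of *Hilpda* 0.11, each moving by more than the SD between replicates. Under the other 12 alternatives both stayed within that SD, and over all 13 the values kept their direction, at 3.12 to 3.36 for *Car9* and 0.11 to 0.32 for *Hilpda*. The difference of the 2 log2 fold changes stayed within 2.93 to 3.08. The replicate block gave 3.30 for *Car9* and 0.29 for *Hilpda* and called the same number of listed genes, 8. Same-numbered libraries of the lines deviated from their means with correlations of -0.0382, -0.000524 and -0.0218, and no pairing was therefore assumed. Of the 8 hypoxia targets that differed, 4 had an absolute log2 fold change over 1, and 2 had a start and an end that were both unchanged, by which fewer genes were considered. The count was 8 in every other alternative, with one library left out included. Depth limits *Car9* in UN-SCC679, where each library held 25 to 40 counts.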
